A study of Mus musculus with 2 samples.

Results

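Endothelial cells without mural markers were selected from tumors by their counts, and the counts of the rule are therefore no finding. A cell was a member when it held at least 3 unique molecular identifiers (UMIs, counts of captured RNA molecules) of Pecam1, Cdh5 and Cldn5 together. It also had to hold no UMI of Ptprc or Csf1r and under 3 UMIs each of a mural set (Rgs5, Notch3, Kcnj8), a fibroblast set (Dcn, Lum, Pdgfra) and a cancer set (Lgals7, Krt18). Of 6768 barcodes, 4403 were kept with at least 200 genes, 500 UMIs, at most 10% mitochondrial UMIs and a barcode seen in 1 library only, and 91 of these were members, 43 of 1442 from wild type (WT) hosts and 48 of 2961 from tight skin (TSK) hosts. The cells came from subcutaneous tumors that grew after injection of SO cells, a syngeneic ovarian cancer line, into C57BL/6 female mice 6 to 8 weeks old. TSK mice carry a duplication inside the fibrillin-1 gene Fbn1. All hosts received the same cancer line. The tumors of each genotype were pooled before dissociation and gave 1 library of single cell RNA per genotype, so animals cannot be told apart and no difference between genotypes could be tested.

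The endothelium lines blood vessels and lymphatics. Its cells join through VE-cadherin (Cdh5), claudin-5 (Cldn5) and PECAM-1 (Pecam1), and read vascular endothelial growth factor (VEGF) through the receptors Kdr and Flt1. Capillary cells bind lipoprotein lipase through Gpihbp1 and take up fatty acids through Cd36, while tip cells lead new sprouts in tumors and make Esm1, Angpt2 and Apln. Endothelial cells also present antigen and call in leukocytes, which interferon gamma increases.

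The label endothelial held for 66 of the 91 members. Because the sum of 3 genes can be met by Pecam1 alone, which leukocytes and platelets also make, each member was checked for 29 other pan-endothelial genes such as Kdr, Flt1, Tie1, Erg and Emcn. In the 34 WT cells and 32 TSK cells called endothelial below, 9 to 29 and 12 to 28 of the 29 were detected, with medians of 25 and 21. In the other 25 members, 9 in WT and 16 in TSK, at most 4 were detected. All 25 held Pecam1, but only 2 of them held a UMI of Cdh5 or Cldn5, against 34 of 34 and 31 of 32 of the endothelial cells. No cell had from 5 to 8 of these genes, and the boundary of 5 was set after the cells had been seen.

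**Figure D1:**
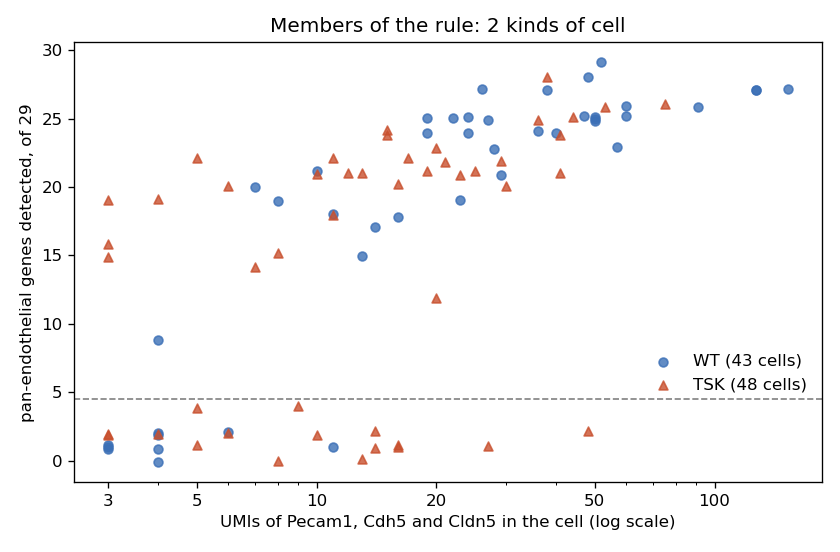
Each point is a member cell (WT circles, TSK triangles), with its UMIs of the 3 rule genes on a log axis and the number of 29 pan-endothelial genes detected, shifted slightly up or down to separate the points. The dashed line separates the 66 endothelial cells from 25 cells with 0 to 4 such genes, some of which hold over 10 rule UMIs.

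The 25 members without an endothelial profile differed between the libraries. Among the 16 TSK cells, Spp1 (osteopontin) was found in 16, the chromatin protein gene Hmga2 in 15, Cdkn2a in 10 and the glutamate receptor gene Grik2 in 9. Hmga2, Grik2 and Cdkn2a had no UMI in the 9 WT cells. Among the 9 WT cells, Cd86 and Cd74, genes of antigen-presenting cells, were each found in 4, while the 16 TSK cells held no UMI of Cd86. These 25 cells are given no type name here. They carried 204958 of 501035 member UMIs in TSK and 31414 of 587103 in WT, so sums over all 91 members mix them with the endothelial cells, and values are therefore given for the 66 cells first.

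The values of the cells next to the threshold were as follows. Of the members with exactly 3 rule UMIs, 0 of 3 in WT and 3 of 5 in TSK had an endothelial profile. Of the cells with exactly 2 that met every other criterion, 2 of 5 in WT and 1 of 8 in TSK had one.

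Set against the kept cells that were not members, the 66 endothelial cells stood most apart by genes outside the rule. Levels are given as CPM, the UMIs of a gene per 1000000 UMIs of the summed cells. The cells that were not members include 37 in WT and 36 in TSK with at least 10 of the 29 pan-endothelial genes. Depp1 stood at 116 CPM against 0.973 in the cells that were not members, and was found in 45.5% of the 66. The transcription factor gene Mecom stood at 1092 against 13.4 CPM and was found in 89.4%. Next to these were Sncaip, Dipk2b, Cyyr1, Btnl9, Prex2 and Ccser1, at ratios from 71.1 for Ccser1 to 83.5 for Sncaip. These ratios describe cells that were chosen by endothelial genes and are no test. Of 7 lymphatic genes, Prox1 was near 0, at 2 UMIs in WT and 1 in TSK, as was Lyve1 at 2 and 0. The 7 genes summed to 35 UMIs in WT and 29 in TSK, and only Flt4 reached 30 UMIs over both libraries. At least 2 UMIs of the 7 were held by 5 of 34 WT and 7 of 32 TSK cells.

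Members made up a smaller share of the TSK library. The share was 2.98% of kept cells in WT (95% exact binomial interval 2.17 to 4.0) and 1.62% in TSK (1.2 to 2.14), a log2 ratio of -0.88 (exact interval -1.50 to -0.25). The 66 endothelial cells alone were 2.36% of kept WT cells and 1.08% of kept TSK cells, a log2 ratio of -1.13 (-1.87 to -0.39). The ratio depends on which cells it is taken over. With cancer cells left out of the total, the endothelial shares were 2.53% and 1.65%, and the interval of the log2 ratio ran from -1.36 to 0.12. With cells that held Ptprc or Csf1r left out as well, the shares were 9.34% and 3.31%, a log2 ratio of -1.50 (-2.24 to -0.76). All intervals here and below cover counting error only, not the spread between mice or digestions.

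Depth differed between the libraries within the endothelial cells. The WT cells had a median of 14902.5 UMIs (2041 to 50115) and the TSK cells 8628 (1628 to 28658), with 555689 and 296077 UMIs in all. The median mitochondrial share was 1.95% in WT and 3.25% in TSK. Levels were therefore compared as CPM. The numbers of cells with a UMI of a gene are given below as counted, at these unequal depths, except where thinning is named. Thinning of a gene's share was to 3000 UMIs per cell, which left out 1 cell in each library. RNA content per cell and capture of RNA cannot be told apart in these counts.

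In the 66 cells, 4050 genes reached 30 UMIs, of which 459 (11.3%) were at least 2-fold higher in TSK and 218 (5.38%) at least 2-fold lower. Scaled by the median gene ratio, the counts were 222 and 348. The median log2 ratio of TSK over WT of the 4050 genes was 0.27, so a gene near that value stood where most genes did. For each gene list in the 66 cells below, the counts past 2-fold are to be set beside 11.3% higher and 5.38% lower over all genes. Over all 91 members, 1022 of 5129 genes (19.9%) were at least 2-fold higher and 311 (6.06%) at least 2-fold lower, with a median of 0.37, and after the same scaling 558 and 568. Of the 12 genes ranked highest in TSK over all members, 9 had under 30 UMIs in the 66 endothelial cells. The potassium channel gene Kcnq5 was such a gene, with 134 TSK UMIs over all members of which 133 lay in the cells without an endothelial profile.

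The rule genes and the other markers of the cell type were of like level in both libraries, apart from Cldn5 and Kdr. In the 66 cells Pecam1 stood at 983 CPM in WT and 1030 in TSK, and Cdh5 at 983 and 875. Cldn5, which seals tight junctions, stood at 572 CPM in WT and 372 in TSK, a log2 ratio of -0.62 (-0.95 to -0.31). The rule used these 3 genes, so their levels are a description. Gpihbp1 was at 722 CPM in WT and 743 in TSK. Of the 27 pan-endothelial genes with enough UMIs, 4 were at least 2-fold higher in TSK and 2 at least 2-fold lower, and their median log2 ratio of 0.21 was near that of all genes.

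The VEGF receptors stood higher in TSK, by an amount that depended on the cells taken. Flt1, which binds VEGF-A and placental growth factor, was at 1276 CPM in WT (1184 to 1373) and 3290 in TSK (3086 to 3503), a log2 ratio of 1.37 (1.23 to 1.51). It was found in 34 of 34 WT and 31 of 32 TSK cells, so the level and not the number of cells differed. Without the 5 deepest cells of each library the log2 ratio was 0.76. Kdr, the main signaling receptor, was at 259 CPM in WT and 493 in TSK (log2 ratio 0.93, 0.59 to 1.27). With cells of at most 10000 UMIs the log2 ratio of Kdr was 0.27, where the median of all genes was 0.09. The angiopoietin receptor Tek did not follow them, at 70.2 CPM in WT and 67.5 in TSK, an interval of -0.91 to 0.76. Of 12 genes of the VEGF, angiopoietin and apelin axis, 2 were at least 2-fold higher in TSK, Flt1 and Aplnr, and none at least 2-fold lower, but Aplnr stood at -0.52 when the endothelial cells outside the rule were included. In the mural cells of the same libraries Flt1 stood at 500 CPM in WT and 480 in TSK, without the difference seen in the endothelial cells, and in the cancer cells it was lower in TSK at 72.4 against 182 CPM.

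Tip cell genes were found in more TSK cells. Of the 19 genes of the tip cell list, 7 were at least 2-fold higher in TSK and none at least 2-fold lower, with a median log2 ratio of 0.78 against 0.27 for all genes. The list shares Flt1, Apln, Aplnr, Pgf and Angpt2 with the axis above. Kcne3, a potassium channel subunit, had 14 UMIs in 4 of 34 WT cells and 85 UMIs in 20 of 32 TSK cells. Its level was 25.2 CPM in WT (13.8 to 42.3) and 287 in TSK (229 to 355), a log2 ratio of 3.51 (2.69 to 4.44). Esm1, the secreted proteoglycan endocan, was at 82.8 CPM in 6 WT cells and at 290 CPM in 20 TSK cells, a log2 ratio of 1.81 (1.28 to 2.36). After thinning, 9.08% of WT and 43.4% of TSK cells would hold a UMI of Esm1.

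Angpt2 was found in more TSK cells, while its summed level was alike in the 2 libraries. This angiopoietin, which destabilizes vessels, was at 328 CPM in WT and 334 in TSK (log2 ratio 0.03, -0.34 to 0.39). It was found in 19 of 34 WT cells and 29 of 32 TSK cells, as counted at unequal depths. A single WT cell held 61 of the 182 WT UMIs, so the like summed levels rest in part on that cell. Apln, the ligand of Aplnr, was at 178 and 331 CPM, in 12 WT and 22 TSK cells. Pgf (placental growth factor) had no firm direction, at 149 CPM in WT and 87.8 in TSK, a log2 ratio of -0.77 that became 1.22 with cells of at most 10000 UMIs and 0.85 without the 5 deepest cells of each library. At least 2 UMIs of Apln, Esm1, Angpt2, Pgf and Cxcr4 together were held by 17 of 34 WT cells (50%, exact interval 32.4 to 67.6) and 28 of 32 TSK cells (87.5%, 71.0 to 96.5), and thinning to 1000 UMIs gave 13.3% and 31.1%.

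**Figure D2:**
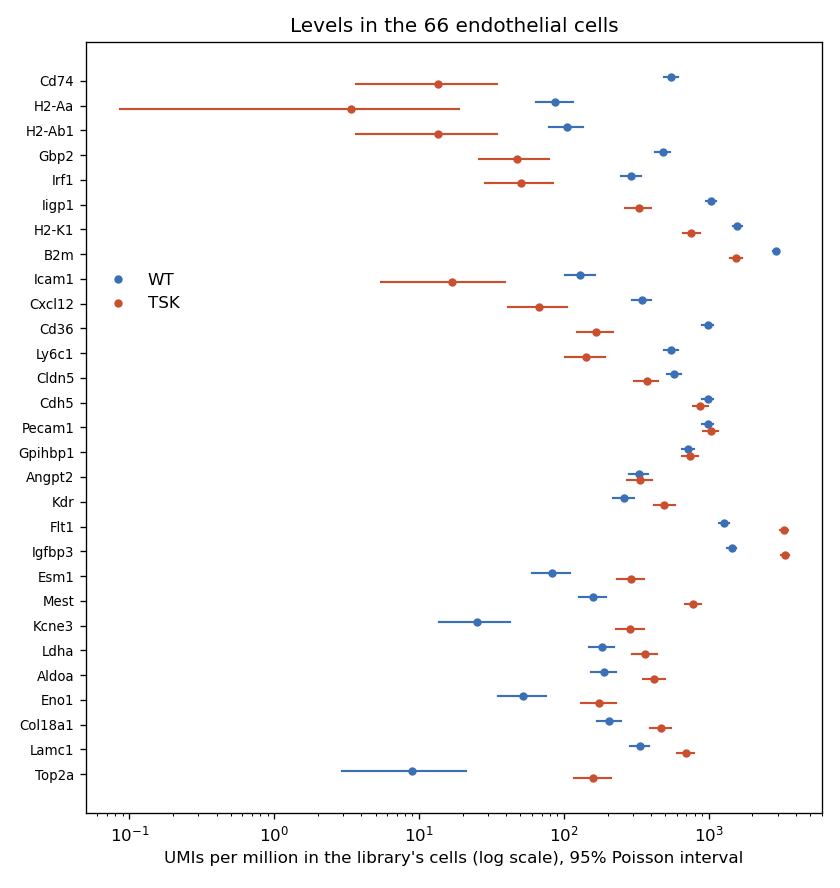
Level of 29 genes in the 66 endothelial cells, as CPM on a log axis with the 95% Poisson interval, for WT (34 cells, blue) and TSK (32 cells, red). Antigen presentation and interferon genes sit to the left in TSK, Pecam1, Cdh5, Gpihbp1 and Angpt2 overlap, and Flt1, Kcne3, Mest and the glycolysis genes sit to the right.

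Capillary genes were found in most cells of both libraries, and some of them were far lower in TSK. At least 2 UMIs of the capillary set were held by 32 of 34 WT cells and 29 of 32 TSK cells. Of 12 capillary genes with enough UMIs, 5 were at least 2-fold lower in TSK and 1 at least 2-fold higher, with a median log2 ratio of -0.58. Cd36, the fatty acid receptor, was found in 24 of 34 WT cells and 4 of 32 TSK cells. Its level was 979 CPM in WT (898 to 1065) and 165 in TSK (122 to 219), a log2 ratio of -2.56 (-3.02 to -2.14), and 39 of its 49 TSK UMIs came from 1 cell. With cells of at most 10000 UMIs the log2 ratio was -6.67. Lpl and Pparg, both of fatty acid handling, and Meox2, a transcription factor of fatty acid transporting endothelium, were lower as well, at log2 ratios of -2.26, -1.79 and -1.56. The fatty acid binding protein gene Fabp4 was at 2944 CPM in WT and 1824 in TSK, while its relative Fabp5 was higher in TSK at 243 against 117 CPM.

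Arterial and venous genes showed no common direction. Sema3g and Fbln5 of the arterial list were lower in TSK, each at 13.5 CPM from 4 UMIs, against 73.8 and 91.8 CPM in WT. Efnb2, the arterial ephrin ligand, and Unc5b were higher, at log2 ratios of 1.14 and 1.36. Among venous genes Selp, the leukocyte tethering P-selectin, was at 70.2 CPM in WT and 23.6 in TSK, whereas Nr2f2, the transcription factor of venous fate, was at 52.2 and 101 and Vwf at 153 and 145. Of the Notch pathway, 0 of 8 genes passed 2-fold in either direction, and Dll4, a ligand of tip and arterial cells, was at 139 CPM in WT and 233 in TSK. Arterial core genes reached 2 UMIs in 11 WT and 6 TSK cells and venous core genes in 15 and 21. Most cells with either set also held capillary genes (10 of 11 and 6 of 6 for arterial, 14 of 15 and 19 of 21 for venous).

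Antigen presentation genes were lower in TSK. Of the MHC class II genes, 4 of 4 with enough UMIs were at least 2-fold lower, with a median log2 ratio of -3.81. Cd74, the invariant chain that escorts class II molecules, had 305 UMIs in 16 of 34 WT cells and 4 UMIs in 2 of 32 TSK cells. Its level was 549 CPM in WT (489 to 614) and 13.5 in TSK (3.68 to 34.6), a log2 ratio of -5.34 (-7.23 to -3.97), and a single WT cell held 98 of the UMIs. The class II chains H2-Aa, H2-Ab1 and H2-Eb1 were at 86.4, 104 and 75.6 CPM in WT and at 3.38, 13.5 and 13.5 in TSK. These genes are also those of macrophages, where Cd74 stood at 6443 CPM in WT and 4407 in TSK.

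Macrophage RNA in the endothelial cells was measured beside this result. All 12 genes of the macrophage list had a UMI in the WT endothelial cells and 8 of 12 in TSK, and the list summed to 175 CPM in WT and 91.2 in TSK. Its level in a cell ran from 0 to 17.6 UMIs per 10000 in WT and from 0 to 9.42 in TSK. The defining genes were near 0 in both libraries, with Lyz2 at 10.8 CPM in WT and 10.1 in TSK and C1qa at 3.60 and 3.38. In the macrophages, which were chosen in part by C1qa, Lyz2 stood at 2402 CPM in WT and 2850 in TSK. Without the cells that held any UMI of Lyz2, C1qa, C1qb or C1qc, which left 26 cells in each library, the log2 ratio of Cd74 was -4.32. T cells, which should lack Cd74, had 155 CPM in WT and 73.2 in TSK, and fibroblasts 90.9 and 11.2. The WT endothelial level of 549 CPM lay above both, and the TSK level of 13.5 CPM lay between the TSK levels of fibroblasts and T cells. The part of free RNA and of macrophage RNA in the WT and TSK levels was not tested.

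Class I presentation genes were lower by a smaller factor. Of 18 such genes 6 were at least 2-fold lower in TSK and 0 at least 2-fold higher, with a median log2 ratio of -0.81. B2m, the light chain of class I molecules, was at 2906 CPM in WT (2766 to 3052) and 1533 in TSK (1396 to 1681), and was found in 34 of 34 and 31 of 32 cells. H2-K1 was at 1573 and 757 CPM. The chaperone gene Calr, which loads peptides and also folds other glycoproteins, stood the other way, at 328 CPM in WT and 608 in TSK.

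Interferon response genes divided. Of 22 genes 9 were at least 2-fold lower in TSK and 1 at least 2-fold higher, and the median log2 ratio was -0.35. The lower genes were Irf1 with the guanylate binding protein genes Gbp2, Gbp3, Gbp4, Gbp6 and Gbp7 and the immunity-related GTPase genes Iigp1, Igtp and Irgm1, which interferon gamma is known to induce. Irf1, the transcription factor that carries the response, was at 290 CPM in 26 of 34 WT cells and at 50.7 CPM in 9 of 32 TSK cells, a log2 ratio of -2.52 (-3.39 to -1.75). Iigp1 was at 1031 CPM in WT and 328 in TSK (-1.98 to -1.34), in 27 and 14 cells. Gbp2 was at 480 and 47.3 CPM, but a single WT cell held 133 of its 267 WT UMIs, and without the 5 deepest cells of each library its log2 ratio moved from -3.35 to -1.66. Ifitm3, which type I interferon also induces, was close in both libraries, at 1262 CPM in WT and 1243 in TSK. Rsad2 was the gene past 2-fold in the other direction, with 25 of its 30 TSK UMIs in 1 cell. Over all 91 members, 13 of 24 genes were at least 2-fold lower, with a median of -1.22. With the endothelial cells outside the rule included, described in the closing section, the median of the list was 0.03, so the list as a whole has no firm direction.

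The promoters of this list show the shared element of the response. The window from 250 bases before to 50 after the start of each gene was taken from RefSeq (GRCm38.p6) and read on both strands for GAAA, any 2 bases and GAAA again, the core of an interferon-stimulated response element. Of 24 list genes matched, 15 (62.5%) held it, against 1079 of 27025 genes (3.99%) in all. The list was made of interferon response genes, so this share is no test. Over all members, 16 of 24 genes of the list were over 1.5-fold lower in TSK. In the endothelial cells alone, 10 of 22 were. These stretches are shown for genes with log2 ratios of -3.35 (Gbp2), -1.97 (Gbp3) and -2.19 (Igtp), 5′ to 3′ on the strand of the gene, with the match in capitals (TTTC on both sides where it lies on the opposite strand). In Gbp3 2 matches overlap. A match is a description of these letters and not of binding.
Gbp2, chr3:142620579-142620638, plus strand: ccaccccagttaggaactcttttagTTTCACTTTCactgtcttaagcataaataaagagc
Gbp3, chr3:142559974-142560039, plus strand: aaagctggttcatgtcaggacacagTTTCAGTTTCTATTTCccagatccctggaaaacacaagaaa
Igtp, chr11:58199497-58199555, plus strand: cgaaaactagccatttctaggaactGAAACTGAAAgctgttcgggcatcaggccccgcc

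Other cells of the same tumors had lower B2m in TSK too. B2m was lower in TSK in mural cells (log2 ratio -1.49), fibroblasts (-1.06), macrophages (-0.54), T cells (-0.52) and cancer cells (-1.96), beside -0.92 in the endothelial cells. The median log2 ratio of the interferon list was -1.39 in mural cells, -0.20 in fibroblasts, -0.03 in macrophages, -0.05 in T cells and -2.0 in cancer cells. That of the class II list was -2.55 in fibroblasts, -0.55 in macrophages, -2.52 in T cells and -2.10 in cancer cells, beside -3.81 in the endothelial cells. In mural cells no class II gene had enough UMIs. Each of these classes was 1 sum per library from the same 2 libraries, so none is independent of the others. Whether the endothelial difference is larger than theirs was not tested.

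**Figure D3:**
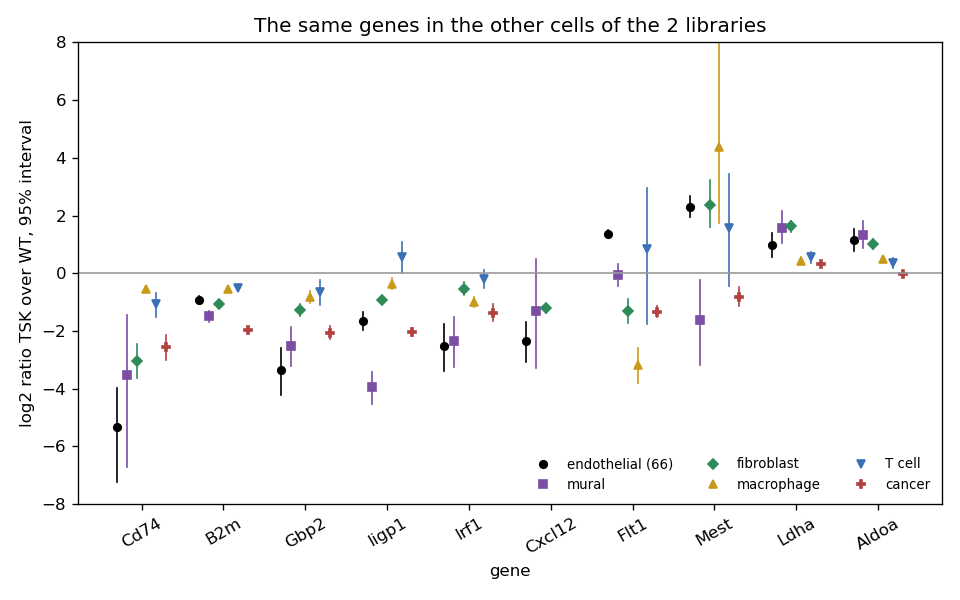
Log2 ratio of TSK over WT for 10 genes in the 66 endothelial cells and in 5 other cell classes of the same libraries, with exact 95% intervals of the counts cut off at 8, for classes with at least 10 UMIs of the gene. B2m and Gbp2 lie below 0 in all 6 classes. Flt1 lies at 1.37 in the 66 endothelial cells and at -0.06 in mural cells. In the endothelial cells outside the rule, which are not drawn, Flt1 was at 0.18.

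Among genes that hold and attract leukocytes, Icam1 and Cxcl12 were lower in TSK, while the list as a whole had no firm direction. Of 13 genes of this list 6 were at least 2-fold lower and 0 at least 2-fold higher, with a median log2 ratio of -0.51, which became 0.12 with cells of at most 10000 UMIs. Icam1, the integrin ligand on which leukocytes arrest, was at 130 CPM in 18 WT cells and at 16.9 CPM in 4 TSK cells (log2 ratio -2.94, -4.61 to -1.65). The chemokine gene Cxcl12 was at 344 and 67.5 CPM, in 22 and 7 cells, a log2 ratio of -2.35 (-3.09 to -1.68). Cxcl9, which draws in T cells and is induced by interferon gamma, was at 871 CPM in WT and 395 in TSK. Cxcl10 stood the other way at 68.4 and 135 CPM, from only 6 and 5 cells, and its log2 ratio of 0.98 became -1.18 without the cells that held macrophage genes. Cxcl12 was lower in TSK fibroblasts too, at 261 CPM against 608.

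Glycolysis and hypoxia genes were higher in TSK as a group. Of 18 genes 7 were at least 2-fold higher and 0 at least 2-fold lower, and 14 were over 1.5-fold higher, as were 30.5% of all genes, with a median log2 ratio of 0.96. Eno1 was at 52.2 CPM in WT and 176 in TSK (log2 ratio 1.75, 1.07 to 2.46), and the glucose transporter gene Slc2a1 at 36.0 and 111 (1.63, 0.79 to 2.51). Aldoa was at 189 and 419 CPM and Ldha, which makes lactate, at 184 and 361. Pfkfb3, which drives glycolysis in sprouting cells, was at 106 CPM in WT and 64.2 in TSK, a log2 ratio of -0.73 that became 0.40 without the cells that held macrophage genes. The median level per cell was 14.4 UMIs of the list per 10000 in WT and 44.1 in TSK, with overlapping ranges of 1.66 to 51.7 and 8.71 to 116. The list also stood higher in TSK mural cells (median log2 ratio 1.08) and fibroblasts (1.36), less so in macrophages (0.46) and T cells (0.41), and at -0.05 in cancer cells. Within the endothelial cells, 11 cancer marker genes summed to 9.0 CPM in WT, from 5 of 34 cells. In TSK they summed to 33.8 CPM, from 9 of 32 cells. The part of cancer cell RNA in the endothelial levels was not tested.

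The hypoxia response element has the core ACGTG. Of 23 genes of the list matched in RefSeq, 17 (73.9%) held these letters on either strand of the promoter window, against 21.8% of all genes. The list was made of glycolysis and hypoxia genes, so this share too is no test. The stretches of Slc2a1, Aldoa and Pgk1 are shown, with log2 ratios of 1.63, 1.15 and 1.06 and the core in capitals (CACGT where it lies on the opposite strand). Pgk1 held it on both strands.
Slc2a1, chr4:119108684-119108738, plus strand: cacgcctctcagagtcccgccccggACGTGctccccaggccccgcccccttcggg
Aldoa, chr7:126799351-126799405, minus strand: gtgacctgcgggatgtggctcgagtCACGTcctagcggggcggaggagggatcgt
Pgk1, chrX:106186925-106186998, plus strand: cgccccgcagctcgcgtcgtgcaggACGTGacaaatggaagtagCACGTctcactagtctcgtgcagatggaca

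**Figure D4:**
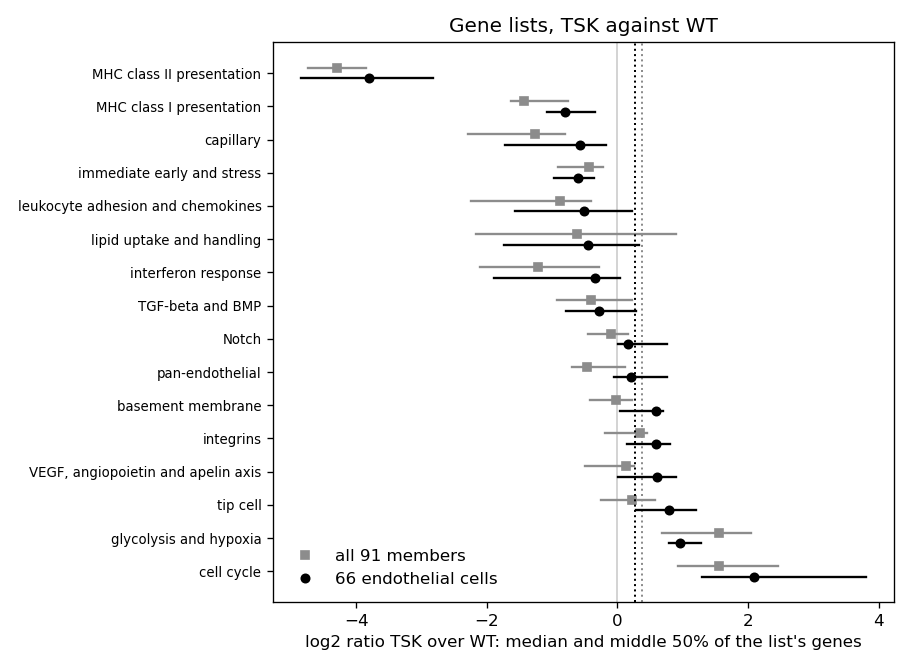
Median log2 ratio of TSK over WT of the genes of 16 lists (points) with the middle 50% of the genes (lines), in all 91 members (grey) and in the 66 endothelial cells (black). Dotted lines mark the median of all genes in each set. Class II genes lie farthest left, at medians of -4.29 and -3.81, and cell cycle genes farthest right in the 66 cells, at 2.10.

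Fbn1, the gene altered in TSK mice (chr2:125300594-125507993, minus strand, GRCm38), was low in endothelial cells. WT held 12 UMIs from 8 cells and TSK 2 from 2 cells, 21.6 and 6.75 CPM, and the interval of the log2 ratio ran from -4.88 to 0.49. Fibroblasts held 1377 CPM in WT and 1277 in TSK. Over all members the WT level was 64.7 CPM, with 26 of 38 UMIs in the 9 cells without an endothelial profile. The counts take in transcripts of either allele and do not show the duplication. Of 4 microfibril and elastic fiber genes with enough UMIs 3 were at least 2-fold lower in TSK (Ltbp4, Fbln2 and Fbln5), a direction that the list lost with the endothelial cells outside the rule included (median 0.55). Ltbp4, which tethers latent TGF-beta to the matrix, was at 149 CPM in WT and 50.7 in TSK, and Fbln2 at 72 and 20.3. Eln (elastin) had 22 UMIs in 7 WT cells and 0 in TSK, where 3 counts would be 10.1 CPM.

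Single basement membrane genes stood higher in TSK, but the list passed 2-fold about as often as all genes. Col4a1 was at 2158 CPM in WT (2037 to 2283) and 3006 in TSK (2812 to 3210), and was found in all 66 cells. Lamc1, the laminin gamma 1 chain, was at 333 and 692 CPM and Col18a1, whose fragment is endostatin, at 205 and 466. Of 14 genes 2 were at least 2-fold higher (11.3% of all genes were) and 1 at least 2-fold lower, Lamb2, with a median log2 ratio of 0.58 against 0.27 for all genes. Over all 91 members that median was -0.02 against 0.37. Among integrins, 3 of 12 were at least 2-fold higher in TSK, with the collagen receptor chain gene Itga2 at 28.8 and 142 CPM (log2 ratio 2.30, 1.44 to 3.23). Fn1 (fibronectin) was at 288 CPM in 13 WT cells and 699 CPM in 24 TSK cells.

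TGF-beta and BMP genes went both ways, with 2 of 22 at least 2-fold higher and 5 at least 2-fold lower. Over all genes these shares were 11.3% and 5.38%. The median log2 ratio of the list was -0.29 against 0.27 for all genes, and ran from -0.56 to 0.46 over the settings. The ligand gene Tgfb1 was at 166 CPM in WT and 314 in TSK, while the receptor genes Tgfbr2 and Tgfbr3 were lower in TSK, at 87.8 against 153 and at 33.8 against 119. The targets Ccn1 and Ccn2 differed in direction, at log2 ratios of -1.07 and 1.01.

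Cell cycle genes were high in a few TSK cells. Of 10 genes of the list 8 were at least 2-fold higher in TSK, with a median log2 ratio of 2.10. Top2a had 5 UMIs from 5 cells in WT and 47 from 12 cells in TSK, and Cdk1 had 3 from 2 cells and 28 from 12. Over 8 such genes (Mki67, Top2a, Cdk1, Ube2c, Birc5, Ccnb1, Ccnb2, Cenpf), 1 of 34 WT cells and 5 of 32 TSK cells held at least 10 UMIs, and 2 TSK cells held 97 of the 170 UMIs. Without the cells that held at least 4 of these UMIs, 3 in WT and 9 in TSK, the median of the list was 0.22. The list is also higher in TSK fibroblasts, with a median log2 ratio of 2.80.

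**Figure D5:**
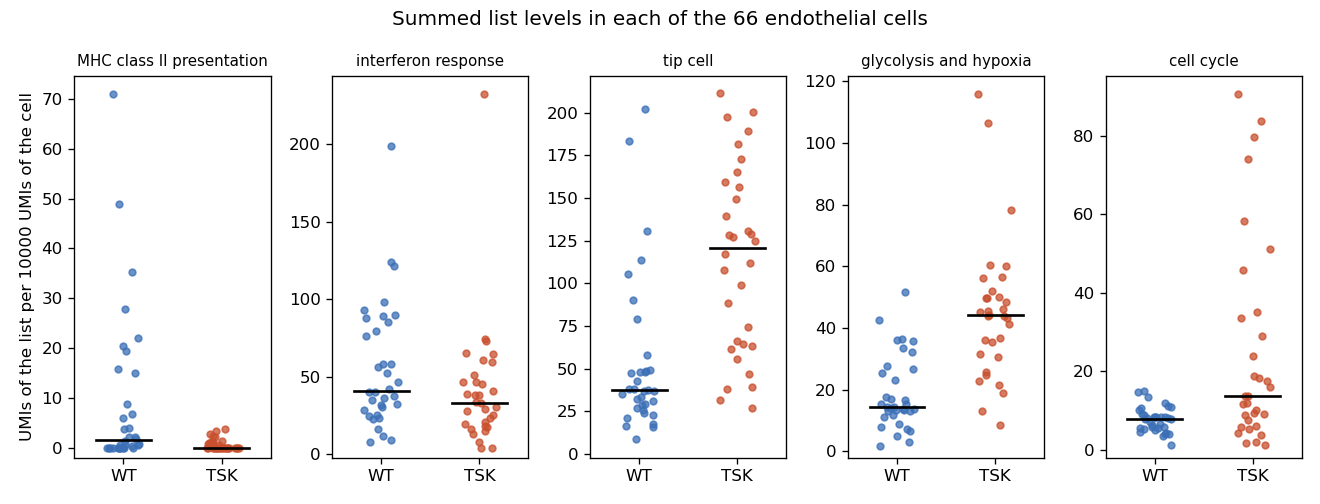
Summed UMIs of 5 gene lists per 10000 UMIs in each endothelial cell (WT 34 cells, TSK 32 cells), with a bar at the median. Class II genes are at or near 0 in most cells and high in some WT cells, tip cell and glycolysis genes are higher through most of the TSK cells, and cell cycle genes are high in a minority of TSK cells.

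Early response and stress genes were lower in TSK, while genes of clotting and flow were of mixed direction. Thbd (thrombomodulin), which activates protein C, was at 93.6 CPM in 21 WT cells and 23.6 CPM in 6 TSK cells, while Plat (tissue plasminogen activator) was at 14.4 and 97.9 CPM. The flow-responsive gene Klf2 was at 191 and 196 CPM, whereas its relative Klf4 was at 295 and 97.9. Of 19 early response and stress genes 4 were at least 2-fold lower in TSK and 0 higher, with a median log2 ratio of -0.61 (-0.88 to -0.40 over the settings), and 10 were over 1.5-fold lower, as were 11.1% of all genes. In this list Egr1 was at 849 CPM in WT and 203 in TSK. Fos was at 795 and 405 CPM and Jun at 767 and 648. Socs3, which is not in the list, was at 234 CPM in WT and 54.0 in TSK. Egr1 was not lower in TSK fibroblasts, at 1436 CPM against 1280, nor in cancer cells, at 713 against 397. It was lower in mural cells, at 309 against 500. The median log2 ratio of the whole list was 0.24 in mural cells, 0.33 in fibroblasts, 0.27 in macrophages, -0.24 in T cells and 0.50 in cancer cells.

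Among the 12 genes ranked highest in TSK in the 66 cells were Tnfaip2, Mest, Hmgb2, Sema6d and Piezo2. Mest, an imprinted gene of growing tissue, was at 158 CPM in WT (127 to 195) and 777 in TSK (680 to 884). It was found in 20 of 34 WT cells and 21 of 32 TSK cells, as counted at unequal depths. The median level of Mest per cell was 0.73 UMIs per 10000 in WT and 2.44 in TSK. Whether its spread over cells differed at equal depth was not tested. Piezo2, a mechanically gated channel, was found in 8 WT cells and 26 TSK cells, at 149 and 540 CPM. Tnfaip2 was at 32.4 and 226 CPM. Among the 12 ranked lowest were Cdk8, H2-Aa, Irf1, Cxcl12, Icam1 and Ly6c1, a surface protein gene of capillary endothelium that was found in 33 of 34 WT cells and 16 of 32 TSK cells, at 547 and 142 CPM. Cdk8 made 12865 CPM in WT and 3097 in TSK in the endothelial cells, and was also lower in TSK mural cells (log2 ratio -2.89), fibroblasts (-2.32), macrophages (-0.86), T cells (-1.24) and cancer cells (-2.68).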

How the data were processed

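Single cell suspensions of pooled subcutaneous tumors were depleted of red and dead cells, not selected by type, and made into libraries (10x Genomics), 1 per genotype. The values are whole UMI counts per gene and barcode, deposited by the authors as filtered matrices made with Cell Ranger against mm10 (version 7.1.1 in the submitters' processing notes, 7.1.0 in the file headers). The study's upper limit of 10000 UMIs was not applied, since 31 of the 66 endothelial cells lie above it, and doublets were not called beyond the exclusion genes. Of the 263 barcodes seen in both libraries, 251 in WT and 255 in TSK passed the cell filter and were left out, and none of these met the rule. Kept cells held 17070622 UMIs in WT and 45661542 in TSK.

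UMIs were summed over cells of each library and divided by the summed total (CPM). Intervals are exact Poisson (levels), exact Clopper-Pearson (shares) and exact conditional (ratios), at 95%, and were tested on simulated counts. A count of 0 was set to 3 counts in a ratio. With 1 library per genotype no test was run and no cell was used as a replicate. Genes needed 30 UMIs in both libraries together. Thinned shares are expected values from the hypergeometric distribution. Named genes were the rule genes and markers, the 12 highest and 12 lowest by the interval bound nearest 0 (with no cell over 20% of the UMIs), the 2 largest and 2 smallest ratios of each list, Fbn1, the 15 leading genes and markers of other types. Further list members are named as examples, chosen after their values were seen. Reference classes held at least 3 UMIs of their own set (Cd3d, Cd3e and Cd3g for T cells, Csf1r, C1qa and C1qb for macrophages, the rule's sets for the others) and under 3 of every other set. Members and lists were chosen with earlier results of these data known. Coordinates are of GENCODE M21 (GRCm38, the build mm10). Alternatives were limits on cells, thresholds of the rule, scaling, weighting and gene minimum. Python 3.11.15 with numpy 2.4.6, scipy 1.17.1 and pandas 2.3.3 was used.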

Additional observations from a re-analysis of the deposited data

Results flagged for a closer look

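About as many cells with an endothelial profile lay outside the rule as inside it. Of kept cells with at least 10 of the 29 pan-endothelial genes, 37 in WT and 36 in TSK were not members. Of these, 25 and 28 had the mural genes and 13 and 2 had Ptprc or Csf1r, beside at least 3 UMIs of the rule's endothelial genes, and 3 and 1 had under 3 UMIs of the latter. They were not part of the comparisons, came from the same 2 libraries and were compared after the data had been seen. In these cells Kcne3 was at 8.76 CPM in WT and 234 in TSK, Esm1 at 35.0 and 409, Mest at 91.3 and 363, Cd36 at 935 and 53.7, Ubd at 469 and 23.9, and Cd74 at 752 and 47.7. A single WT cell held 329 of the 601 WT UMIs of Cd74. The 13 WT and 2 TSK cells with Ptprc or Csf1r are included, and the part of leukocyte RNA in the Cd74 level was not tested. Flt1 was at 1276 and 1449, a log2 ratio of 0.18 (0.05 to 0.31), against 1.37 inside the rule.

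A further 8 barcodes of the WT library that also occur in the TSK library had at least 10 pan-endothelial genes, and 0 of the TSK barcodes. They were left out with all shared barcodes.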

How the results depend on the processing

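No paired analysis was possible because each genotype has 1 library. The limit of 10000 UMIs per cell gave 443 genes higher and 166 lower over all members, 187 and 120 in the 66 endothelial cells, and a log2 share of -0.30 for the 66. Scaling by the median gene ratio gave 558 and 568 over all members and 222 and 348 in the 66, so the excess of higher genes rests on the scaling. A minimum of 100 UMIs gave 248 and 104, and 89 and 59 in the 66, and no minimum 3235 and 1052, and 2170 and 938. Members with no UMI of the exclusion genes gave 539 and 200, and leaving out the 5 deepest cells of each library gave 200 lower genes over all members. Chosen after seeing the data, all kept cells with at least 10 pan-endothelial genes gave 1335 and 464, and the 66 without cycling cells 304 higher genes. Over all members Col3a1 had the other sign with the UMI limit (-1.92), equal weight per cell (-1.05) and without the deepest cells (-0.71), as did Pgf (0.87, 0.37 and 0.16), and Fbn1 with at least 5 endothelial UMIs (0.73). With the cells of at least 10 pan-endothelial genes the sign turned for the fibrillin list (0.55), Aplnr (-0.52), Tagln (2.30) and Tgfbi (1.82), and Tgfbi also without cells holding macrophage genes (1.63). The cause was not tested. In the 66 cells Cd74 ran from -5.79 to -4.16, Kcne3 from 2.55 to 5.47, Esm1 from 1.54 to 4.82, Flt1 from 0.66 to 1.44 and Irf1 from -2.84 to -1.37 over all settings. The medians ran from 0.51 to 1.07 for tip cell genes, 0.69 to 1.41 for glycolysis, 0.22 to 2.42 for the cell cycle and -1.03 to 0.03 for the interferon response. Genes under 30 UMIs entered no count, and the interval of Fbn1 takes in 0.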
